A study of Mus musculus with 15 samples.

Results

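The genes described here are Pparg, Nr1h3 and 8 genes that take up, bind, store or export lipid: Cd36, Lpl, Fabp4, Fabp5, Abca1, Abcg1, Apoe and Plin2. Members were every probe set that the array annotation assigns to one of these symbols alone, which gave 20 probe sets for 10 genes, out of 45037 probe sets and 18193 genes on the array. A probe set is a group of short oligonucleotides that reads 1 transcript or part of it. Pparg, Nr1h3, Apoe and Plin2 had 1 probe set each, Lpl, Fabp5 and Abcg1 had 2, Cd36 and Abca1 had 3, and Fabp4 had 4. Where 1 value stands for a gene, it is that of its brightest probe set, by the mean of the 15 arrays. Levels of different probe sets were not set against each other, because probe sets differ in how brightly they read the same amount of RNA.

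All samples came from wild-type C57Bl/6 mice and were hybridised to Affymetrix 3′ expression arrays with a single colour. The 8 bone marrow progenitor arrays, 2 a group, covered common myeloid progenitors (CMP, sorted as CD117 high, CD135+, CD16/32-), granulocyte-macrophage progenitors (GMP, CD117 high, CD16/32+, CD135-), common dendritic cell progenitors (CDP, CD117 intermediate, CD135+) and the later precursors committed to classical dendritic cells (pre-cDC, CD117 low, CD135+, CD11c+). The 3 culture arrays, 1 a group, covered bone marrow grown for 7 days at 20 ng/ml of cytokine: adherent cells grown in M-CSF, adherent cells grown in GM-CSF, and non-adherent CD11c+ cells grown in GM-CSF. M-CSF drives macrophage growth, and GM-CSF cultures hold macrophages and dendritic cells side by side. The 3 monocyte arrays, 1 a time, covered bone marrow monocytes isolated by negative selection and then kept with 20 ng/ml GM-CSF, taken at 0, 24 and 48 h. No array held monocytes kept without GM-CSF, so GM-CSF and time in culture cannot be told apart. A further array, titled Spl and labelled as a bone marrow progenitor, is described at the end. Because each group after the progenitors is 1 array, differences among cultures and among monocytes have no replicate check and no p-value. Whether the 2 arrays of a progenitor group stem from different mice is not stated in the labels, and the p-values therefore reflect a spread between arrays that may be technical.

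Pparg encodes PPARγ and Nr1h3 encodes LXRα, nuclear receptors that pair with RXR and switch genes on when bound by fatty acid derivatives or by oxysterols. PPARγ is best known from adipocytes, and in myeloid cells it is needed for alveolar macrophages, where GM-CSF induces it. LXRs answer to cholesterol load in macrophages by raising the exporters Abca1 and Abcg1 and the lipoprotein Apoe. Among the other genes, Cd36 encodes a scavenger receptor that takes up oxidised lipoprotein and long-chain fatty acids, Lpl encodes the lipase that frees fatty acids from lipoprotein triglyceride, Fabp4 and Fabp5 encode cytosolic fatty acid carriers, and Plin2 encodes the coat protein of lipid droplets. Cd36, Fabp4, Lpl and Plin2 are textbook targets of PPARγ.

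PPAR–RXR and LXR–RXR bind DNA at repeats of a short motif whose core is GGTCA, spaced by 1 base for PPAR–RXR and by 4 bases for LXR–RXR. The 250 bases before the start site were at hand for 6 of the 10 genes (RefSeq, build GRCm38.p6): Nr1h3 with 2 start sites, Abca1, Plin2 and Cd36 with 1 each, and Pparg and Apoe with 3 each, or 11 windows in all. Entries for Fabp4, Fabp5, Abcg1 and Lpl were not used here. GGTCA, on either strand, was found in 7 of the 11 windows, from 5 genes, and in 35.2% of all 32851 such windows. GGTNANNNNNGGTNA, a loose form of the repeat spaced by 4 that contains the core where its letters allow, was found in 1 of the 11 windows, that of Abca1, and in 0.621% of all windows. GGTNANNGGTNA, the loose form of the repeat spaced by 1, was found in 0 of the 11 windows and in 0.938% of all windows. A match here is a description of letters and not a measured binding site, and these windows leave out distant enhancers. The windows of Abca1, Apoe and Cd36 are printed because their brightest probe sets had the 3 widest differences among the members between monocytes at 0 and 48 h, with Apoe lower and the others higher. Capitals mark the matches, and each window is printed 5′ to 3′ on the strand of the gene. All 3 genes lie on the minus strand. Of the 3 windows of Apoe, only that printed here holds GGTCA. The matches of Abca1 and Cd36 lie on the strand opposite to the gene, so their capitals show the reverse complement of the motif.
Abca1, chr4:53159896-53160145, minus strand, with a match to the repeat spaced by 4 whose first base lies at -67 from the start site: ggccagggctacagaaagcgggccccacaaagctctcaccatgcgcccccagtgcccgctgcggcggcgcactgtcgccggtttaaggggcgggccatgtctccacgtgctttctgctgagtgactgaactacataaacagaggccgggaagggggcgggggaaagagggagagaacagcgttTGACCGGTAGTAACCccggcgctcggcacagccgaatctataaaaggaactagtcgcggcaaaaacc
Apoe, chr7:19699189-19699438, minus strand, with GGTCA at -27: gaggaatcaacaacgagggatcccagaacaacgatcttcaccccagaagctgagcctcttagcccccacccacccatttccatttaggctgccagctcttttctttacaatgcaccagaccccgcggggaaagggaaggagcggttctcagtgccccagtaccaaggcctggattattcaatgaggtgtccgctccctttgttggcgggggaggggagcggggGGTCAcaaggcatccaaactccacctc
Cd36, chr5:17835897-17836146, minus strand, with the reverse complement of GGTCA at -228: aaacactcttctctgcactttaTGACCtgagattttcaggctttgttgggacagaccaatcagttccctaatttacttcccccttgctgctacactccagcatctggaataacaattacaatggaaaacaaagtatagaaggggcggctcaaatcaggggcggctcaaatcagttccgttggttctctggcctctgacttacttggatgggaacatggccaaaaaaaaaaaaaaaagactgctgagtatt

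Values below are intensities on the deposited linear scale. Array medians were 15.95 to 17.44 for progenitors, 24.1 to 25.7 for cultures and 77.7 to 80.5 for monocytes, so levels were compared only within each of these 3 sets. Differences were taken as log2(intensity + 32), which shrinks differences between dim values. Replicate progenitor arrays correlated at 0.994 to 0.996, and 0 of the 20 member probe sets differed 2-fold between replicates on this scale. The sort markers followed the labels: Kit, which encodes CD117, read 905 to 1229 in CMP and GMP, 335 to 368 in CDP and 36.3 to 36.8 in pre-cDC. Fcgr3, which encodes CD16, was 1729.9 to 1775 in GMP and 7.03 to 36.0 elsewhere among the progenitors. In the monocytes Csf1r read 17279 to 18097 and Ccr2 read 6609.9 to 10007. At 0 h the granulocyte genes Prtn3 and S100a8 were also bright there, at 10005 and 10660.1.

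Each member probe set was also placed against the median of its array. In the progenitors 10 of the 20 probe sets lay below the array median on all 8 arrays, and 5 lay above it on all 8. In the cultures all 20 lay above the median on all 3 arrays. In the monocytes 11 lay above the median at every time and 3 at none. The share of all probe sets that met the same rules was not counted. A rule over 8 arrays is also harder to meet than one over 3, so these counts are descriptions only.

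Both nuclear receptors were dim in the progenitors, and neither passed the test in any of the 6 comparisons. Pparg (probe set 1420715_a_at) read 3.22 and 3.62 in CMP, 6.73 and 7.25 in GMP, 4.58 and 7.21 in CDP, and 10.8 and 1.57 in pre-cDC. All 8 values lay below the array median, and the 2 pre-cDC arrays spanned the whole range of the others. Pparg passed the test against CMP without the lower pre-cDC array (log2 difference 0.27, limma adjusted p = 0.0186) and, in the other direction, against GMP without the higher one (-0.22, adjusted p = 0.0352). Nr1h3 (1450444_a_at) read 12.5 and 11.7 in CMP, 17.1 and 12.4 in GMP, 11.2 and 10.8 in CDP, and 12.3 and 8.31 in pre-cDC. Only 1 of these 8 values, in GMP, lay above the median of its array, and the groups lay within a narrow band, with CMP overlapping GMP.

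Of the uptake genes, Lpl stood out in GMP. Lpl (1415904_at) read 67.2 and 59.9 in GMP, against 11.8 and 15.4 in CMP, 10.4 and 12.3 in CDP, and 11.7 and 9.99 in pre-cDC. Both GMP arrays lay above the other 6, which lay close together below the median. Lpl rose by 1.07 (SE 0.0869) on the log2 scale in GMP over CMP (limma, Benjamini-Hochberg adjusted p = 5.72e-06), and it was lower in CDP than in GMP by a difference of -1.14 and in pre-cDC by -1.16 (adjusted p = 1.55e-06 and 3.08e-07). The other Lpl probe set (1431056_a_at) read 32.1 and 27.9 in GMP and 6.90 to 11.3 in the other 6, and passed the same 3 tests. Cell type lists differed between GMP and CMP as well. The 11 granulocyte genes measured summed to 34117 to 35174 in GMP and 10773 to 11402 in CMP. The 5 mast cell and basophil genes summed to 368 to 489 and 162 to 178, and the 6 lymphocyte genes to 1969 to 2030 and 491 to 570. Of the 6 lymphocyte genes, 2 lay above the array median in GMP and 3 in CMP, so the GMP sum came mainly from 2 genes. Of the 5 mast cell and basophil genes 3 passed the test upward, where 6.26% of all genes did. Lower in GMP were the sums of the 10 classical dendritic cell genes (260 to 270 against 1826 to 2051.5) and the 6 early progenitor genes (2526 to 2746 against 4648 to 5119). Their part in the Lpl level was not tested. In such sorted but mixed samples, fewer cells that hold a transcript and less transcript per cell cannot be told apart.

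Cd36 and Fabp4 were near the bottom of the scale. The brightest Cd36 probe set (1450883_a_at) read 2.67 to 9.04 over the 8 arrays and the brightest Fabp4 probe set (1417023_a_at) 1.0 to 4.17. All 7 probe sets of these 2 genes lay below the median on all 8 arrays. A single one, Cd36 1423166_at, passed the test, at 9.48 and 7.61 in CMP against 2.69 and 1.72 in CDP and 5.03 and 2.13 in pre-cDC (log2 differences -0.25 and -0.19, adjusted p = 0.0293 and 0.0338). These differences are small and lie below the median intensity, and the other 2 Cd36 probe sets did not pass.

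Of the carriers, Fabp5 was bright in CMP, GMP and CDP and fell in pre-cDC. Fabp5 (1416021_a_at) read 2033 and 1887 in CMP, 1679 and 1573 in GMP, and 2076 and 2041 in CDP. In pre-cDC it read 433 and 314, far below the other 6 arrays. The fall in pre-cDC came to -2.38 (SE 0.121) on the log2 scale against CDP (adjusted p = 3.26e-08), -2.31 against CMP (adjusted p = 1.57e-08) and -2.05 against GMP (adjusted p = 3.54e-08). CDP read 5.21-fold higher than pre-cDC on this scale. The other Fabp5 probe set (1416022_at) read 726 to 1120.2 in CMP, GMP and CDP and 155 and 104 in pre-cDC, and fell by 2.67 against CDP (adjusted p = 4.47e-08). Between CDP and GMP the arrays did not overlap, but the difference of 0.34 (SE 0.121) missed the threshold (adjusted p = 0.0645). It passed with dim probe sets left out (adjusted p = 0.0368). CMP and CDP differed by 0.07 (SE 0.121, adjusted p = 0.817).

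Plin2, the droplet coat gene, was high in GMP and pre-cDC. Plin2 (1448318_at) read 300.4 and 222 in CMP, 632 and 548 in GMP, 356 and 278 in CDP, and 742 and 593 in pre-cDC. The GMP and pre-cDC arrays lay above all 4 CMP and CDP arrays, and within each of these pairs of groups the arrays overlapped. Plin2 rose by 1.09 (SE 0.161) in GMP over CMP (adjusted p = 0.000641), by 1.26 in pre-cDC over CMP (adjusted p = 4.14e-05) and was 2.01-fold higher in pre-cDC than in CDP (adjusted p = 0.00046). Pre-cDC and GMP differed by 0.16 (SE 0.161, adjusted p = 0.478), and CDP and CMP by 0.26 (adjusted p = 0.418).

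The exporters followed different orders. Abca1 (1421840_at), which passes cholesterol to lipid-poor apolipoprotein A-I, read 148 and 156 in CMP, 124 and 120.4 in CDP, 58.0 and 75.8 in pre-cDC, and 26.1 and 31.7 in GMP. No 2 groups overlapped. Abca1 fell by 1.60 (SE 0.116) on the log2 scale in GMP against CMP (adjusted p = 2.23e-06) and by 0.65 in pre-cDC against CDP (adjusted p = 0.00108), and it was higher in pre-cDC than in GMP by 0.70 (adjusted p = 0.000339). CMP and CDP, neighbours at the top, differed by -0.25 (SE 0.116), which did not pass (adjusted p = 0.24). The other 2 Abca1 probe sets read 3.38 to 9.24 over the 8 arrays, below the median, and did not pass in any of the 6 comparisons.

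Abcg1 (1423570_at), which passes cholesterol to high-density lipoprotein, was highest in pre-cDC. It read 692 and 783 there, 564 and 573 in CMP, 537 and 471 in CDP, and 297 and 302 in GMP. The groups did not overlap. Abcg1 rose by 0.52 (SE 0.11) in pre-cDC over CDP (adjusted p = 0.00337) and by 1.21 over GMP (adjusted p = 1.62e-06), and fell by 0.86 in GMP against CMP (adjusted p = 0.000222). CDP and CMP differed by -0.16 (adjusted p = 0.45). Over CMP the rise in pre-cDC was 0.36 (SE 0.11, adjusted p = 0.0232), and this call was lost under quantile normalization (adjusted p = 0.0718) and without the second pre-cDC array, the first CMP array or the second CMP array (adjusted p = 0.151, 0.104 and 0.0835). Abca1 and Abcg1 were thus both lowest in GMP, while pre-cDC ranked above CMP and CDP for Abcg1 and below them for Abca1.

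Apoe (1432466_a_at), an apolipoprotein made by macrophages, differed widely between the 2 arrays of CMP and of GMP. It read 58.2 and 25.5 in CMP, 47.0 and 87.5 in GMP, 12.7 and 6.65 in CDP, and 9.28 and 8.26 in pre-cDC. CMP and GMP overlapped and lay above all 4 CDP and pre-cDC arrays, which were below the array median. Apoe fell by 1.23 (SE 0.201) in CDP against GMP (adjusted p = 0.000737) and by 1.25 in pre-cDC against GMP (adjusted p = 0.000245). Against CMP the differences were -0.79 in CDP (adjusted p = 0.0279) and -0.82 in pre-cDC (adjusted p = 0.00631), and both were lost without the first CMP array (adjusted p = 0.28 and 0.0963). The CDP call was also lost without the first or the second CDP array (adjusted p = 0.0514 and 0.17), with a larger value added before log2 (adjusted p = 0.0807) and in limma without the trend (adjusted p = 0.0604). GMP and CMP differed by 0.43 (adjusted p = 0.214), which passed without the first CMP array (adjusted p = 0.0415). Within CMP and within GMP the array with more Apoe also had more Klf1, an erythroid transcription factor gene, at 403 against 186 in CMP and 250.2 against 108 in GMP. In CDP and in pre-cDC, where both genes were below the array median, the array with more Apoe had less Klf1 (4.75 against 12.1, and 10.2 against 12.1). The 7 erythroid genes measured summed to 4063 to 5369 in CMP, 2543 to 4549.5 in GMP, 150.2 to 212 in CDP and 63.0 to 74.7 in pre-cDC, again with the higher sum on the array with more Apoe in CMP and GMP and with less in CDP and pre-cDC. Their part in the Apoe level was not tested.

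**Figure D1:**
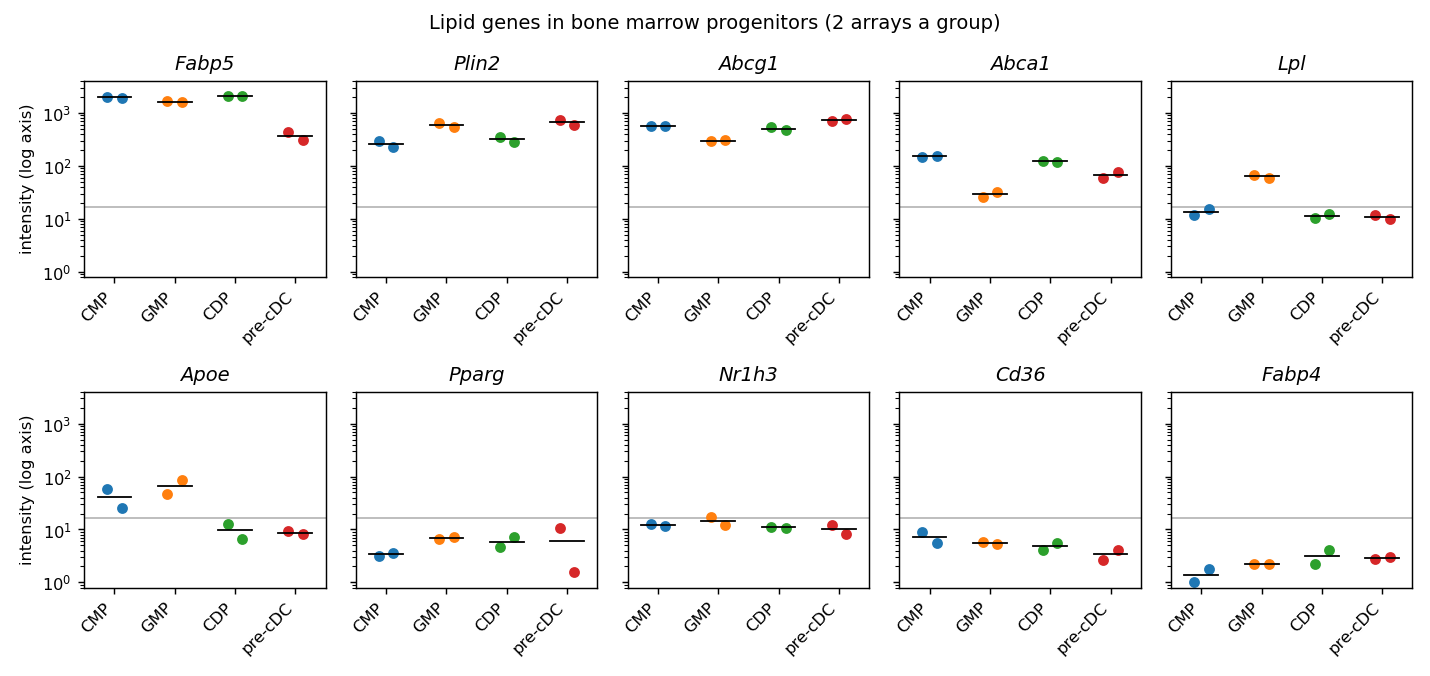
Intensity (log axis) of each gene's brightest probe set in CMP, GMP, CDP and pre-cDC; points are the 2 arrays of a group, black bars their mean, and the grey line an array median. Fabp5 sits lowest in pre-cDC, Lpl highest in GMP and Abca1 lowest in GMP, while Pparg, Cd36 and Fabp4 stay below the grey line in every group.

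The calls were counted over all 20 probe sets and set beside the share of all probe sets on the array. In GMP against CMP 5 of 20 were called (3 higher, 2 lower), where 12.4% of all probe sets were called. In CDP against CMP 2 of 20 were called, both lower, with 8.97% of all probe sets called and 3.72% lower; this count was 0 without the first CDP, the second CDP or the first CMP array, where 3 of 20 had an unadjusted p under 0.05 in limma, and 1 without the second CMP array. In CDP against GMP 6 of 20 were called (2 higher, 4 lower; 23.9% of all). In pre-cDC the counts were 7 of 20 against CMP (2 higher, 5 lower; 34.1% of all), 8 of 20 against GMP (3 higher, 5 lower; 38.4% of all) and 6 of 20 against CDP (3 higher, 3 lower; 24.6% of all). Without the first CMP array the count against CMP was 4. The shares of members in the 3 pre-cDC comparisons, 35.0%, 40.0% and 30.0%, were near those of all probe sets. Groups are shared between these 6 comparisons, so their counts are not independent. The median log2 difference over the 10 genes was between -0.08 and 0.06 in the 6 comparisons and that of all genes between -0.01 and 0.00.

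Other genes of lipid handling were read beside the members, first in pre-cDC. Each list below was written from textbook knowledge, counts are over 1 probe set a gene, and in pre-cDC against CMP, GMP and CDP 18.3%, 20.4% and 13.2% of all genes were called higher and 22.1%, 22.2% and 17.4% lower. Of 15 genes of lysosomal lipid breakdown and cholesterol egress, 12 rose in pre-cDC against CMP, 11 against GMP and 12 against CDP, and 0 fell (median log2 difference 1.26, 1.20 and 0.87). Cyp27a1, which makes the LXR ligand 27-hydroxycholesterol, had a mean of 1117 in pre-cDC, 35.4 in CMP, 28.3 in GMP and 111 in CDP (log2 difference from CMP 4.07, SE 0.15, adjusted p = 9.02e-10). Psap, the saposin precursor gene, rose from 1489.6 in CMP to 6940.2 (adjusted p = 5.01e-10). Of 18 genes of fatty acid oxidation 12 fell and 1 rose against CMP, 13 fell and 2 rose against GMP, and 9 fell and 1 rose against CDP. Hadh, a dehydrogenase of the β-oxidation cycle, had a mean of 159 in pre-cDC and 1209 in CMP (adjusted p = 1.24e-08), and Angptl4, an inhibitor of lipoprotein lipase and a PPAR target, 4.55 and 162 (adjusted p = 7.13e-09). Cpt1a, the entry step of fatty acids into mitochondria, went the other way, at 916 in pre-cDC and 609 in CMP (adjusted p = 0.00257).

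Marker lists of cell types also differed in pre-cDC. The 6 monocyte genes measured summed to 14712 to 15077 in pre-cDC, 6834 to 7328 in CDP, 3690 to 4428 in GMP and 2963 to 3092 in CMP. Of these 6, 5 rose in pre-cDC against each of the 3 other groups, and 1 fell against GMP and against CDP. The 10 macrophage genes summed to 4557 to 4756 in pre-cDC and 1880 to 2053 in CMP, and 6 rose and 0 fell against CMP, but C1qa stayed below the array median in pre-cDC, at 3.81 and 3.04. The 10 classical dendritic cell genes summed to 18562 to 19863 in pre-cDC and 4539 to 5008 in CDP. The part of these signals in the pre-cDC levels of the members and lists was not tested.

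Partners of the 2 receptors rose more often than they fell in pre-cDC. Of 12 genes for receptor partners and coregulators 7 rose and 1 fell in pre-cDC against CMP, 8 rose and 1 fell against GMP, and 4 rose and 0 fell against CDP. The coactivator gene Ncoa3 had a mean of 552 in pre-cDC, 184 in CDP, 116 in CMP and 59.97 in GMP (pre-cDC against GMP, log2 difference 2.66, adjusted p = 1.07e-08). Rxra, the shared partner RXRα, had a mean of 136 in pre-cDC and 20.5 in CDP (log2 difference 1.68, adjusted p = 7.92e-08). Of 18 other LXR target genes 2 rose and 6 fell against CMP and against CDP, and 3 rose and 6 fell against GMP: Pltp, the phospholipid transfer protein gene, rose over CMP (96.9 against 50.4, adjusted p = 0.000811) and Lpcat3, a phospholipid acyltransferase gene, fell (155 against 372, adjusted p = 9.34e-06). Of 21 genes of cholesterol synthesis 11 rose and 2 fell against CMP, 10 rose and 5 fell against GMP, and 8 rose and 1 fell against CDP. These counts were not tested against each other.

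In GMP against CMP, where 6.26% of all genes were called higher and 8.67% lower, the lists were mixed. Of 21 genes of lipid droplet turnover 5 rose and 4 fell. Dgat2, a triglyceride synthase gene, rose from a mean of 26.9 in CMP to 113 in GMP (log2 difference 1.30, SE 0.0976, adjusted p = 2.84e-06), and Lpin1, a phosphatidate phosphatase gene, fell from 167 to 60.8 (adjusted p = 0.000141). Of 16 genes of lipoprotein and scavenger uptake 3 rose and 1 fell. Olr1, a receptor for oxidised lipoprotein, rose from 5.08 to 133 (log2 difference 2.16, adjusted p = 2.92e-08) and the lipoprotein receptor gene Vldlr fell from 59.5 to 7.5 (adjusted p = 1.55e-05). In CDP against CMP, with 6.40% of all genes called higher and 5.55% lower, lysosomal lipid genes rose in 5 of 15 and fell in 0, and fatty acid oxidation genes rose in 0 of 18 and fell in 2.

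All 10 genes lay above the array median on all 3 culture arrays. Pparg, Fabp4, Lpl, Cd36 and Plin2 are also adipocyte genes, so the adipocyte genes Adipoq, Lep and Cidec were read beside them. These were below the array median in all 3 cultures, with Adipoq at 5.11 to 11, and 3 or 4 of the 12 stromal and adipocyte genes measured lay above it, with sums of 209 to 232.

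Pparg read 1973 in M-CSF adherent cells, 1319 in GM-CSF adherent cells and 663 in GM-CSF CD11c+ cells. Nr1h3 read 248, 260.4 and 99.5 in the same order. Both receptor genes were thus lowest in the CD11c+ cells. With 1 array a group, a probe set counts here if it was at least 2-fold apart on the log2(intensity + 32) scale and its higher value lay above the array median. By that rule Pparg was 2.88-fold lower in CD11c+ than in M-CSF adherent cells, and Nr1h3 was 2.13-fold lower than in M-CSF and 2.22-fold lower than in GM-CSF adherent cells. With a larger value added before log2 neither Nr1h3 difference was counted (-0.73 and -0.77 on the log2 scale). Between the GM-CSF fractions Pparg differed by -0.96 on the log2 scale, just short of 2-fold, and was counted under quantile normalization (-1.004).

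Cd36 had the widest range among the effector genes. Its 3 probe sets read 10797, 8870.5 and 2364 in M-CSF adherent cells, 7025, 5346 and 812 in GM-CSF adherent cells, and 4806, 3352 and 263 in CD11c+ cells. All 3 were lower in that order, and all 3 were counted between CD11c+ and M-CSF cells, at 2.24-, 2.63- and 8.13-fold. Only the dimmest (1450884_at) was counted between the adherent cells, 2.84-fold lower in GM-CSF, and between the GM-CSF fractions, 2.86-fold lower in CD11c+. The fold thus depended on the probe set.

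Fabp4 took another order. Its brightest probe set read 4486 in M-CSF adherent, 7288 in GM-CSF adherent and 5022 in CD11c+ cells, and 1451263_a_at read 4524, 6999 and 4595. Neither reached 2-fold in any of the 3 comparisons. The 2 dimmer ones did: 1424155_at read 136, 467 and 92.9, and 1425809_at 72.7, 236 and 59.4. All 4 were highest in the GM-CSF adherent cells.

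Lpl, Fabp5 and Plin2 differed little. Lpl read 11529.7, 10676 and 9717 in M-CSF adherent, GM-CSF adherent and CD11c+ cells, Fabp5 11929.9, 12983 and 10183, and Plin2 9715, 7171 and 6310.4. The highest intensity on these arrays was 11916 to 14046, so Lpl and Fabp5 lay close to the top of the scale. Of the exporters, Abca1 read 3813, 1945 and 2379.9 and Abcg1 2219, 3272 and 2168. Abca1 was highest with M-CSF and Abcg1 with GM-CSF in adherent cells, by 1.95- and 1.47-fold. The other Abcg1 probe set (1455221_at) read 353, 581 and 576. By that one the CD11c+ cells lay near the GM-CSF adherent cells, and by the brightest one near the M-CSF cells. The 2 dimmer Abca1 probe sets passed 2-fold between the adherent cells (369.6 against 157, and 149 against 47.5). Apoe read 6685, 4059.5 and 3463.

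**Figure D2:**
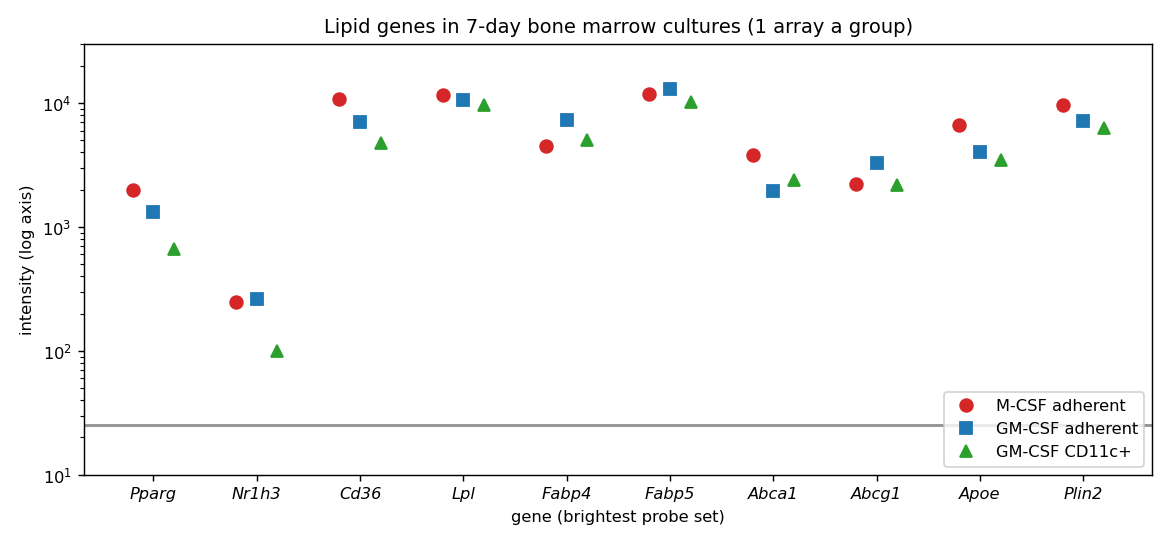
Intensity (log axis) of each gene's brightest probe set on the 3 culture arrays, 1 point an array; the grey line marks an array median. All points lie above the line, and for Pparg and Cd36 they descend from M-CSF adherent (1973 and 10797) to GM-CSF adherent to CD11c+ cells (663 and 4806).

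Between the adherent cells 5 of 20 member probe sets were counted (2 higher and 3 lower in GM-CSF), where 3.74% of all probe sets were. None of these 5 was the brightest probe set of its gene. Between CD11c+ and M-CSF adherent cells 5 of 20 were counted, all lower in CD11c+, where 7.03% of all probe sets were counted and 3.27% in that direction. Between the GM-CSF fractions 4 of 20 were counted, all lower in CD11c+, against 2.58% of all and 0.928% in that direction. At 4-fold the 3 counts were 0, 1 and 0. Each array serves in 2 of these comparisons, so the counts are not independent. All 20 member probe sets lay above the median on all 3 arrays. The shares of all probe sets include those below it on both arrays, which the rule cannot count, so they are not matched for brightness.

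Marker lists of cell types also differed between the cultures. The 11 granulocyte genes summed to 16810.4 in M-CSF adherent, 27841 in GM-CSF adherent and 7479.8 in CD11c+ cells, the 10 macrophage genes to 58321, 44139 and 40703, and the 10 classical dendritic cell genes to 11700.0, 32552 and 41666. C1qa, a macrophage complement gene, read 2453, 2199 and 2847, and Zbtb46, a transcription factor gene of classical dendritic cells, 33.5, 66.8 and 293. Their part in the lipid gene levels was not tested.

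Genes of several of the wider lists differed between the cultures. Where 3.37% of all genes were counted higher and 2.12% lower in GM-CSF adherent than in M-CSF adherent cells, 5 of 16 uptake genes were higher and 2 lower. Olr1 read 521 against 10.2, and Stab1, a scavenger receptor gene of tissue macrophages, 256 against 1614. Of 18 other LXR target genes 3 were higher and 2 lower. Cd5l, which encodes a macrophage survival protein, read 9143 with M-CSF, 792 in GM-CSF adherent and 165 in CD11c+ cells, and Apoc2, an activator of lipoprotein lipase, 278, 1266 and 879.9. Of 15 lysosomal lipid genes 3 were higher and 0 lower in GM-CSF adherent than in M-CSF adherent cells. Of 12 receptor partners and coregulators 2 were higher and 0 lower, and of 18 fatty acid oxidation genes 0 differed. Rxra and Ppard, a relative of Pparg, were higher in GM-CSF adherent cells (516 against 183, and 329 against 119). Mgll, which frees fatty acid from monoglyceride, read 413, 2773 and 2097.

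In monocytes given GM-CSF, Pparg read higher at both later times than at 0 h. Pparg read 20.9 at 0 h, 193 at 24 h and 124 at 48 h, 4.25-fold higher at 24 h and 2.94-fold higher at 48 h than at 0 h. It lay below the array median (77.7 to 80.5) at 0 h and above it at both later times, so the size of the fold depends on the value added before log2. With a larger added value the log2 difference was 1.11 at 24 h, still past 2-fold, and 0.76 at 48 h, which was no longer counted. Nr1h3 read 49.6, 63.6 and 84.3, lay above the median only at 48 h and did not reach 2-fold.

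Cd36 showed the largest difference among the members. It read 91.2 at 0 h, 2116 at 24 h and 6912 at 48 h, 17.4-fold higher at 24 h and 56.4-fold higher at 48 h than at 0 h. The other probe sets read 47.4, 1502 and 4047, and 19.0, 183 and 433. All 3 were counted in all 3 comparisons, and each was higher at 48 h than at 24 h, by 3.23-, 2.66- and 2.16-fold.

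Lpl was bright at 0 h and brighter at both later times. It read 5737, 20399.7 and 17924, and its other probe set (1431056_a_at) 524, 11512 and 8758. At 24 h the 2 probe sets were 3.54- and 20.8-fold higher than at 0 h, and both were somewhat lower at 48 h than at 24 h. The brighter one approached the top of its array (highest intensity 23230.0 at 24 h). Of the fatty acid carriers, Fabp4 read 69.4, 183 and 181, or 2.12-fold higher at 24 h, and 1451263_a_at read 129, 338 and 314. The first of them, 1417023_a_at, was below the array median at 0 h, and with a larger value added before log2 it was not counted at 24 h or at 48 h over 0 h (log2 difference 0.65 at both). The 2 dimmest Fabp4 probe sets read 4.90 to 46.6 and stayed below the median. Fabp5 read 14109, 18026 and 18568, and its second probe set 4989.9, 8365 and 11917, which was counted at 48 h over 0 h (2.38-fold). Plin2 stayed within 1.07-fold, at 9630.3, 8982 and 9484.

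The exporters and Apoe parted ways. Abca1 read 394 at 0 h, 614 at 24 h and 2106 at 48 h, so most of its 5.02-fold difference lay between 24 and 48 h (3.31-fold). The other 2 Abca1 probe sets, at 89.8, 95.5 and 70.5 and at 21.9, 61.8 and 18.1, did not share this and were not counted. Abcg1 read 4485, 6345 and 7647, or 1.70-fold higher at 48 h, and its other probe set 342, 426 and 564. Apoe read 4754, 362 and 139, so that it was 12.1-fold lower at 24 h and 28.01-fold lower at 48 h. Apoe was the 1 member probe set counted as lower in each of the 3 comparisons, though its difference between 24 and 48 h was not counted with a larger value added before log2 (-0.88).

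**Figure D3:**
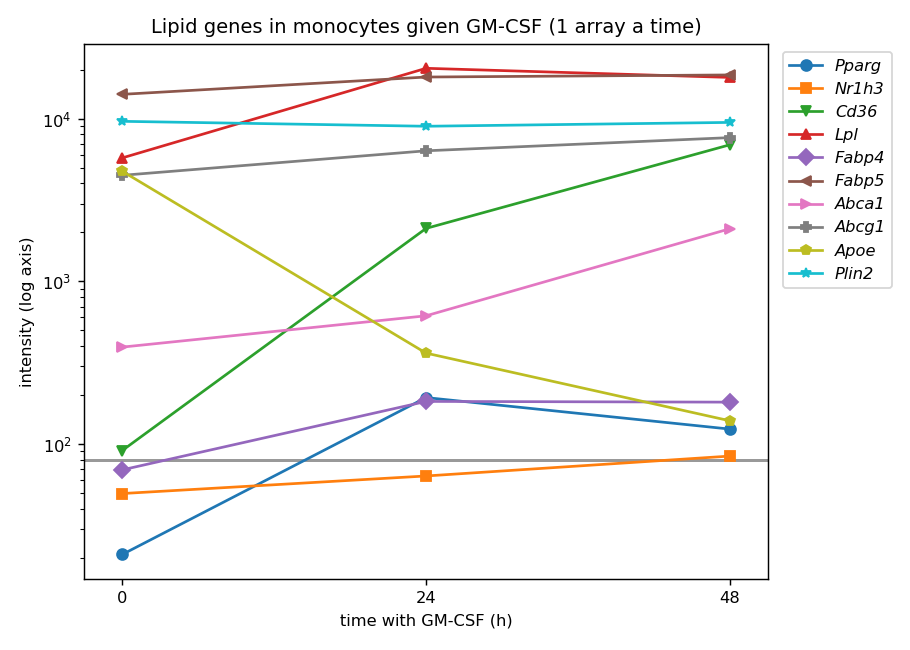
Intensity (log axis) of each gene's brightest probe set against hours with GM-CSF, 1 array a time; the grey line marks an array median. Cd36 climbs from 91.2 to 6912 and Pparg from 20.9 to 193 and back to 124, while Apoe drops from 4754 to 139 and Plin2 stays level.

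At 24 h over 0 h 9 of 20 member probe sets were counted, 8 higher and 1 lower, where 11.9% of all probe sets were counted, 4.87% higher and 7.05% lower. At 48 h over 24 h 5 of 20 were counted, 4 higher and 1 lower (2.81% of all, 2.06% higher), and at 48 h over 0 h 11 of 20, 10 higher and 1 lower (11.5% of all, 5.63% higher). The median log2 difference of the 10 genes was 0.55 at 24 h and 0.92 at 48 h over 0 h, where that of all genes was 0.00 in both. The 24 h and 48 h arrays were read against the same 0 h array, so a value peculiar to that array enters both. Here too the shares of all probe sets were not matched for brightness.

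Several genes of the granulocyte list were bright on that 0 h array and read lower later. Whether their signal came from other cells or from the monocytes themselves was not tested. Prtn3, a granule protease gene, read 10005, 166 and 156, Elane, neutrophil elastase, 1791, 289.8 and 56.9, and S100a8 10660.1, 1086 and 1465. The 11 granulocyte genes summed to 47242, 15657 and 15601, the 10 macrophage genes to 40337, 49774 and 53916, the 6 monocyte genes to 62505, 36297 and 29863, and the 10 classical dendritic cell genes to 9775, 74614 and 79490.3. Other sums rose: the 6 megakaryocyte and platelet genes gave 261, 13690 and 11361 and the 6 lymphocyte genes 546, 933 and 4737. Above the array median lay 1, 3 and 4 of the 6 megakaryocyte and platelet genes and 2, 1 and 1 of the 6 lymphocyte genes. The lymphocyte sum at 48 h thus came mainly from 1 gene. The 7 erythroid genes summed to 1897, 2461 and 5900 and the 6 early progenitor genes to 825, 1418 and 1861. The 5 mast cell and basophil genes (156, 193 and 195) and the 8 endothelial genes (469, 504 and 434) moved less. C1qa read 11.4, 1347 and 1635, and Itgax, which encodes CD11c, 59.3, 12043 and 12541. The part of these signals in the levels of Cd36, Lpl and Apoe was not tested. The stromal and adipocyte genes summed to 602 to 782, and 0 of the 12 were counted in any of the 3 comparisons, with Adipoq at 32.2, 33.4 and 54.4.

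Genes of cholesterol synthesis were among those higher at the later times. Of 21 measured, 8 were higher and 0 lower at 24 h over 0 h, where 6.22% of all genes were higher and 7.29% lower, and 15 were higher and 0 lower at 48 h, where 7.40% and 6.19% were (median log2 difference 0.80 and 1.17). Sqle, squalene epoxidase, read 1072.5 at 0 h, 5016 at 24 h and 5884 at 48 h, and Hsd17b7, a later enzyme of the pathway, read 133, 958 and 782. Of 18 other LXR target genes 4 were higher and 3 lower at 24 h and 7 higher and 3 lower at 48 h. The fatty acid desaturase gene Fads1 read 184, 858 and 1105. Like Apoe, Apoc2 was far lower later (2365, 103 and 147), and Smpdl3a, a phosphodiesterase gene, read 12584, 1619 and 1863. Ch25h, which makes the LXR ligand 25-hydroxycholesterol, read 51.3, 637 and 2169, and Cyp27a1 3580.0, 384 and 1023. Among uptake genes Cxcl16, a scavenger receptor and chemokine, read 47.1, 2592 and 4276, and Scarb1, the receptor for high-density lipoprotein, was lower (8802, 4316 and 3302). Mgll read 55.7, 1081 and 2192, and G0s2, an inhibitor of droplet lipolysis, 329, 1.96 and 66.0.

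**Figure D4:**
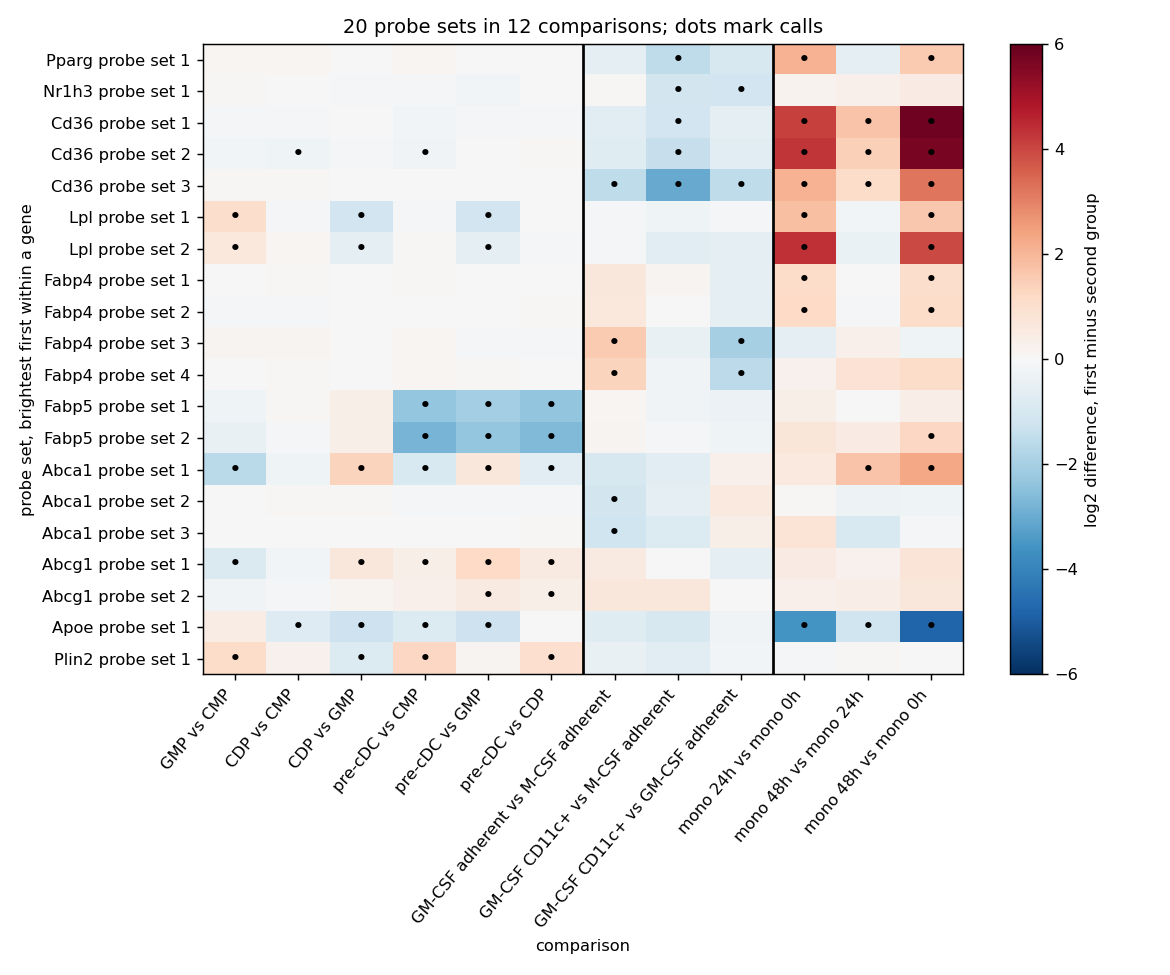
Difference in log2(intensity + 32), first minus second group, for each of the 20 member probe sets (rows) in the 12 comparisons (columns); dots mark probe sets past the test (the 6 progenitor comparisons) or past 2-fold (the other 6), and black lines part the progenitor, culture and monocyte arrays. Fabp5 is blue in the 3 pre-cDC columns, Cd36 darkest red in monocytes at 48 h over 0 h (5.82), and Apoe blue in all 3 monocyte columns (-4.81 at 48 h over 0 h).

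Patterns over 14 arrays, each value centred on the mean of its progenitor, culture or monocyte arrays, were compared among the members and with 14118 genes. Pparg was most like Phlda1 (Pearson r 0.98), Ptpn23 (0.97), Dolk, Etv5 and Rasgef1b (each 0.95), and Nr1h3 was most like Agbl4 (0.94), Npas4 and Dcun1d3 (each 0.93), Vsig8 (0.91) and Dpysl4 (0.90). Etv5, an Ets factor gene, read 17.9, 768 and 863 in the monocytes and 980.2, 301 and 67.3 in M-CSF adherent, GM-CSF adherent and CD11c+ cells. Of the genes most like Nr1h3, Agbl4, Npas4 and Vsig8 lay below the array median on all 8 progenitor arrays (at most 13.5, 9.27 and 7.18). Npas4 (9.21 to 20.6) and Vsig8 (20.8 to 33.8) lay below it on the monocyte arrays too. Of 45 pairs of members 31 had an r above 0 and 7 above 0.6. Cd36 and Pparg had an r of 0.78, Fabp4 and Cd36 0.78, Nr1h3 and Pparg 0.68, and Apoe and Cd36 -0.83. Pparg, Cd36 and Fabp4 lay below the median on all 8 progenitor arrays, and the 6 culture and monocyte arrays are single samples. These values are descriptions with no test.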

How the data were processed

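The deposited values were linear intensities, 1 per probe set and array; the authors' background correction, probe summary and scaling are not given in the sources used for this. The 15 arrays showed 4 scales, so no difference crosses the progenitor, culture and monocyte sets. Of 45037 probe sets, 34945 had 1 gene in the platform annotation, 932 several and 9160 none listed. From the deposited intensities log2(intensity + 32) was computed. The 8 progenitor arrays entered 1 limma fit (limma 3.58.1, R 4.3.3; eBayes with an intensity trend) over all probe sets, two-sided, with Benjamini-Hochberg adjustment and a threshold of 0.05. Single arrays were compared by fold only: 2-fold with the higher value above the array median. With 2 arrays or 1 a group, their number limits the precision. On simulated data for GMP against CMP over 45037 probe sets, the fit called 80 of 100 differences of 1 and 100 of 100 of 2 on the log2 scale, with 3 false calls. The differences were placed only on probe sets whose mean lay above the median of all means. They therefore say nothing of dimmer ones such as those of Pparg, Cd36 and Fabp4. Of 231 list symbols 205 were matched.

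The members, lists and tests were chosen with earlier results of these data known. Named genes were all members, at most 2 higher and 2 lower called genes of each pathway list and comparison, and the 5 genes most like Pparg and Nr1h3; marker genes were named to check labels and show other cells. Alternatives changed the added value to a lower or a higher one, the scaling, the dim filter, the probe sets used, the trend, the replicate block, the fold, and left out each progenitor array in turn. Plots used matplotlib 3.10.9 under Python 3.11.15.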

Additional observations from a re-analysis of the deposited data

How the results depend on the processing

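Of the 84 counts of member probe sets recomputed with all arrays, 71 stayed within 1.5 times the reported count, and of 24 recomputed with 1 array left out, 19 did. This rule compares counts and not shares. With dim probe sets left out 9 members were tested and with 1 probe set a gene 10, in place of 20. In pre-cDC against CMP the count was 7 with and without dim probe sets, while the share of all probe sets called was 34.1% and 59.4%. The counts outside 1.5 times with all arrays were these. CDP against CMP (2 reported) gave 1 with a larger value added before log2, 1 with dim probe sets left out, 1 with 1 probe set a gene, and 0 in limma without the trend, where 4 had an unadjusted p under 0.05. Pre-cDC against GMP (8) gave 5 with 1 probe set a gene, where 10 were tested in place of 20. At 4-fold, GM-CSF against M-CSF adherent cells (5) gave 0, CD11c+ against M-CSF cells (5) gave 1, CD11c+ against GM-CSF adherent cells (4) gave 0, monocytes at 48 h over 24 h (5) gave 0 and at 48 h over 0 h (11) gave 6. With that larger value, GM-CSF against M-CSF adherent cells gave 2, the GM-CSF fractions 2 and monocytes at 48 h over 24 h 3. Leaving out 1 array gave 5 to 6 in GMP against CMP, 0 to 1 in CDP against CMP, 6 in CDP against GMP, and in pre-cDC 4 to 8 against CMP, 8 to 9 against GMP and 5 to 6 against CDP. The cause of the other changes was not tested.

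Of 1056 single-gene differences recomputed, 1022 stayed on their side of the threshold, 28 were no longer past it, 6 newly were, and no called one changed sign. Replicate numbers in the titles gave correlations of deviations of 0.0144 to 0.334 between groups, with only 2 numbers, so they were not taken to pair the arrays. With the replicate block the counts were 6, 2 and 7 in GMP against CMP, CDP against CMP and CDP against GMP, and 8, 8 and 6 in pre-cDC against CMP, GMP and CDP; of the single genes the block moved the call of Fabp5 in CDP against GMP (adjusted p = 0.0251).

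The dim filter kept 9 of the 20 member probe sets, so for Pparg, Nr1h3, Cd36 and Fabp4 in progenitors the arrays limit what can be seen.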

Other observations

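The array titled Spl, whose cell type label says bone marrow progenitor, had a median of 74.2 against 16.7 and 17.4 on the pre-cDC arrays from bone marrow, so each probe set was read only by its place on its own array. Plin2 (969.8) lay at percentile 93.1 of all probe sets, Abcg1 (1454) at 95.7, Abca1 (448) at 85.8 and Fabp5 (433) at 85.4. Among the dimmer members Nr1h3 read 111, Cd36 105 and Pparg 100.2, all above the array median, and Apoe (41.9), Fabp4 (44.6) and Lpl (24.7) below it. Over the 8 progenitor arrays Nr1h3 lay at percentile 29.0 to 51.5, Cd36 at 4.80 to 32.6 and Pparg at 1.67 to 38.4. Markers on this array included Flt3 at 3450.2 and Zbtb46 at 1083, and also Kit at 1105 and the monocyte and macrophage gene Cd14 at 1787, all above the array median. With 1 array on its own scale no test was made.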
